A study of Mus musculus with 2 samples.

Results

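The sarcomere is the contractile unit of striated muscle, and 54 genes that encode its filaments, its Z disc and M band and the factors that assemble it were followed here, of 38926 features listed. They come from a hand-made list of such genes, and a gene was kept when both deposited tables had a row under its symbol. That rule uses no level or ratio, but the list itself was made with earlier results of these data known. The tissue was the pleuroperitoneal folds (PPFs), paired embryonic folds through which muscle precursors from the somites enter the forming diaphragm and which give rise to its connective tissue. The embryos were wild type, at embryonic day 12.5, of a strain background labelled mixed, 129s/SvlmJ-C57/BL6J. Per the labels, hearts and lungs were taken away first, the folds were dissected by hand, and each of the 2 libraries (replicates 1 and 2) pooled 2 PPF pairs. Polyadenylated RNA was sequenced after a strand-keeping preparation. These libraries form 1 group, so there is no other stage, genotype or tissue to compare, and the series states as its purpose the ranking of candidate genes for congenital diaphragmatic hernia. Nothing in the labels says that the pools came from separate litters, so p-values here measure only how far these 2 libraries differ, which may be technical. The libraries held 26370253 and 23255957 counts. Levels are given in TPM, a transcript abundance in which each count is divided by gene length and scaled to a common sum per library, and values after ± are SDs with n = 2.

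In a sarcomere, thick filaments of myosin pull on thin filaments of actin. Each myosin heavy chain carries an essential and a regulatory light chain, and the thin filament is switched on by calcium through troponin (subunits C, I and T) and tropomyosin. The Z disc anchors thin filaments, the M band holds thick filaments together, titin links the Z disc to the M band and nebulin lies along the thin filament. Most of these proteins come from small gene families whose members are known as developmental, fast, slow or heart isoforms. Embryonic skeletal muscle is known for its developmental myosin heavy chains and for the transient use of several isoforms named after the heart.

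Most sarcomere genes were measured well above the level of a typical gene. At least 1 TPM in both libraries was reached by 48 of the 54 members, as against 62.8% of 21720 protein-coding genes. At least 10 TPM was reached by 39 members (background 45.8%) and at least 100 TPM by 15 (background 7.79%). The median member stood at 35.3 TPM and the median protein-coding gene at 7.20 TPM. Together the members took 0.734% and 0.768% of all counts in replicates 1 and 2. The 6 members under 1 TPM in both libraries were Myh2, Nebl, Mybpc3, Myl2, Myoz3 and Xirp2. In the order of mean levels, 20 of 53 neighbouring pairs had overlapping values in the 2 libraries, for example Myh3 with Tpm1 and Tnnt1 with Tnnt2. In a bulk tissue, fewer muscle cells and less RNA per muscle cell cannot be told apart, so the levels are those of the whole fold. All 13 skeletal muscle lineage genes found were at 1 TPM or more. Their highest were Myog, a regulator of muscle differentiation, at 648 and 649 TPM in replicates 1 and 2, Myod1, a muscle determination factor, at 186 and 172 TPM, and Cdh15, a cadherin of muscle precursors, at 122 and 119 TPM. The lowest were Pax3, a gene of migrating muscle precursors, at 3.66 and 3.89 TPM and Myf6 at 3.40 and 4.08 TPM.

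**Figure D1:**
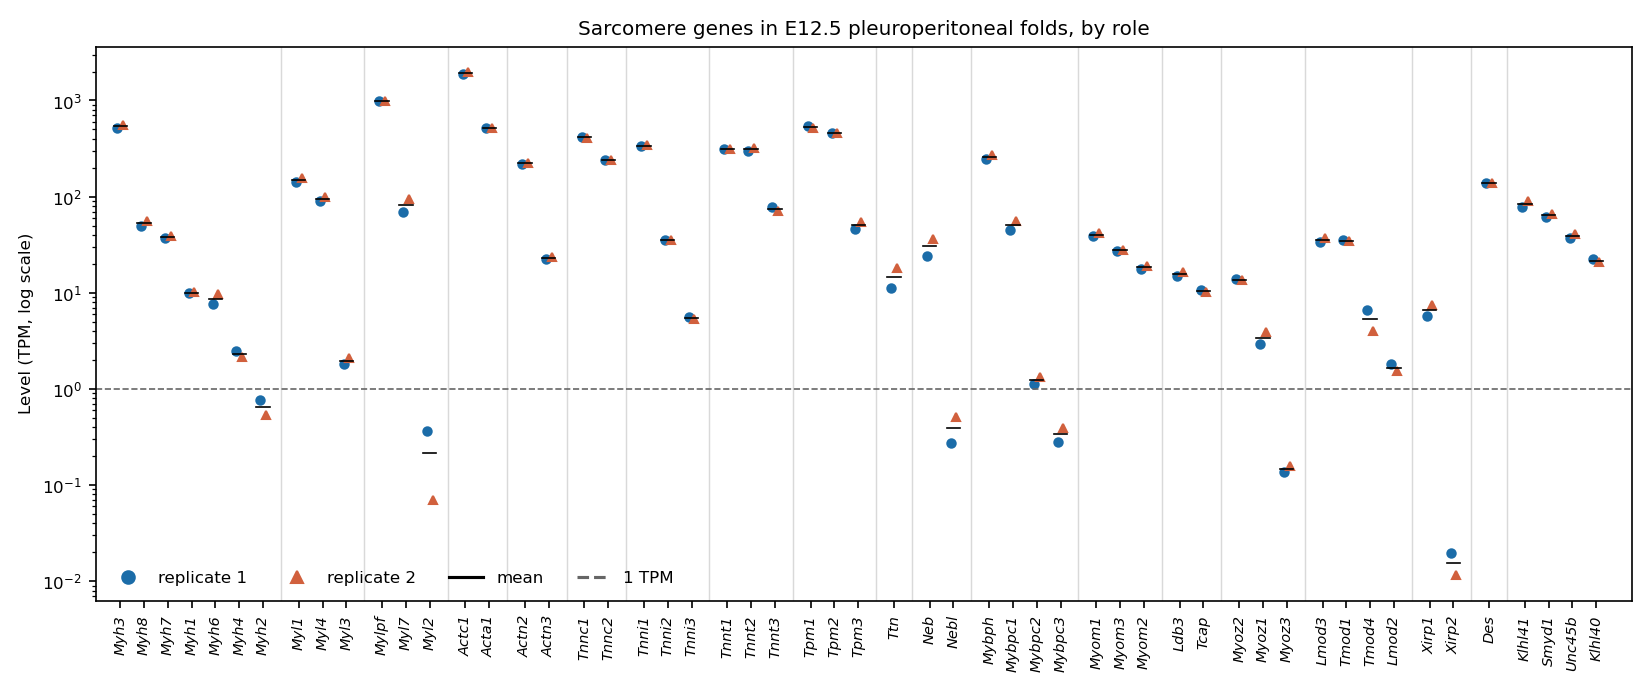
Level of each of the 54 sarcomere genes in TPM on a log axis, grouped by role, with a circle for replicate 1, a triangle for replicate 2 and a bar at their mean. The dashed line marks 1 TPM. Actc1 is highest at 1878 and 1970.1 TPM, 6 genes lie under the line in both libraries, and gaps between the libraries are seen at Ttn, Neb, Nebl, Tmod4, Myl7 and the least counted genes.

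The myosin heavy chain pool was mostly embryonic. Myh3, the embryonic heavy chain (chr11:67078300-67102291, plus strand, GRCm38), stood at 522 TPM in replicate 1 and 561 in replicate 2. It made up 82.8% ± 0.0638 of the summed level of the 7 heavy chain genes, which came to 630.1 and 678 TPM. Myh8, the perinatal heavy chain, was the next at 49.9 TPM in replicate 1 and 55.4 in replicate 2, or 8.04% ± 0.1697 of the pool. The developmental chains together held 90.8% ± 0.106. Myh7, the slow skeletal and ventricular heavy chain, stood at 37.2 TPM in replicate 1 and 39.2 in replicate 2 and held 5.84% ± 0.0932. The adult fast chains were low: Myh1 (type IIx) at 10.02 and 10.1 TPM, Myh4 (type IIb) at 2.47 and 2.17 TPM, and Myh2 (type IIa), lowest of the 7 genes, at 0.7596 and 0.5397 TPM from 46 and 28 counts. Together these 3 genes held 1.99% ± 0.152 of the pool. Myh6, the atrial heavy chain, stood at 7.69 and 9.62 TPM and held 1.32% ± 0.1396. The order Myh3, Myh8, Myh7, Myh1, Myh6, Myh4, Myh2 was the same in both libraries, with no overlap of levels between neighbours. This order and the shares leave out 2 heavy chain genes outside the members. Myh7b stood at 23.5 and 23.6 TPM, between Myh7 and Myh1, and Myh13 at 0.515 and 0.445 TPM, below Myh2. In counts, Myh3 had 26825 of 35655 in replicate 1, with an exact (Clopper-Pearson) 95% interval of 74.8 to 75.7%, and 24720 of 32944 in replicate 2, with 74.6 to 75.5%. Intervals cover counting error alone, and since reads carried no stated molecular identifiers they may count 1 molecule more than once.

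These paralogs are alike enough in sequence that some reads could match more than 1 of them, which bears on how well the low fast chains are measured. The first 90 coding bases of Myh3 and of the 3 adult fast chains (GENCODE M21, principal transcripts) are shown with capitals marking each base that differs from Myh3.
Myh3: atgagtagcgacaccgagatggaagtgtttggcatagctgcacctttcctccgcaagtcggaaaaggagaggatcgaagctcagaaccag
Myh1: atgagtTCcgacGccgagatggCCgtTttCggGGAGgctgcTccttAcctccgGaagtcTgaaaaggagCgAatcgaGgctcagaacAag
Myh2: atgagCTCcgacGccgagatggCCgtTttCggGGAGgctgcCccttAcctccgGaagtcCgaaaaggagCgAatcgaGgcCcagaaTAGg
Myh4: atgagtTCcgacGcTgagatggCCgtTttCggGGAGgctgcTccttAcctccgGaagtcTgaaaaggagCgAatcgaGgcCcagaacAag
In this window Myh1 differs from Myh3 at 19 bases, Myh2 at 23 and Myh4 at 21, while the fast chains share most of the capitals with each other. Over the whole aligned coding sequence Myh1 was 90.95% identical to Myh2, 90.2% to Myh4, 89.3% to Myh8 and 80.3% to Myh3. Each coding sequence was also split into all its runs of 50 consecutive bases (50-base words). Of these words, 27.9% for Myh1, 28.1% for Myh2, 19.6% for Myh4 and 22.7% for Myh8 also occurred in another gene, against 4.99% for Myh3. Myh6 and Myh7 shared 23.8% of the words of Myh6 with each other. The sources used here do not say how reads that match several genes were counted, so the levels of the fast chains, of Myh8 and of Myh6 and Myh7 are uncertain to that extent. Myh7 also shares 13.3% of its exon bases with annotated genes on the opposite strand.

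The light chains did not follow a single isoform class. Among essential light chains, Myl1, the fast skeletal gene, stood at 141 TPM in replicate 1 and 155 in replicate 2, and Myl4, the atrial and embryonic gene, at 89.8 TPM in replicate 1 and 98.1 in replicate 2. Myl3, the slow and ventricular gene, was last at 1.805 and 2.11 TPM from 20 and 20 counts. By deposited TPM, Myl1 held 60.6% ± 0.134 and Myl4 38.6% ± 0.168 of these 3 genes, in the same order in both libraries. These shares leave out Myl6b, a light chain gene outside the members, at 91.4 TPM in replicate 1 and 96.5 in replicate 2. That order rests on the gene length in the files, as given further on, because Myl4 had more counts (3535 and 3305 counts) than Myl1 (2112 and 1993 counts). Of the 50-base words of the Myl1 coding sequence, 60.3% also occur in the pseudogene Mylf-ps. Among regulatory light chains, Mylpf, the fast skeletal gene, was the second highest of all 54 members at 991 TPM in replicate 1 and 984 in replicate 2 and held 92.3% ± 1.499. Myl7, the atrial gene, followed at 69.9 TPM in replicate 1 and 94.2 in replicate 2, and Myl2, the slow and ventricular gene, had 6 and 1 counts (0.363 and 0.0705 TPM). The regulatory light chain transcripts summed to 1062 and 1079 TPM, above the heavy chains in both libraries, and Mylpf alone was 1.83 ± 0.103 times the level of Myh3.

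The actin pool was led by the gene named after the heart. Actc1, cardiac alpha-actin (chr2:114047282-114053548, minus strand, GRCm38), was the highest of all 54 members at 1878 TPM in replicate 1 and 1970.1 in replicate 2, from 25785 and 23171 counts. Acta1, skeletal alpha-actin (chr8:123891769-123894751, minus strand, GRCm38), stood at 519 TPM in replicate 1 and 513 in replicate 2, from 6316 and 5343 counts. Actc1 held 78.8% ± 0.713 of the sarcomeric actin level and was 3.73 ± 0.159 times Acta1. The levels of the pair lie far apart in both libraries. Their proteins are almost the same, but the coding sequences are 86.3% identical, with 155 of 1131 bases different. The first 90 coding bases show how the differences are spread, with capitals where Acta1 differs from Actc1.
Actc1: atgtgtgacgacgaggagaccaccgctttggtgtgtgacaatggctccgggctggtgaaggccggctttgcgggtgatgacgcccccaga
Acta1: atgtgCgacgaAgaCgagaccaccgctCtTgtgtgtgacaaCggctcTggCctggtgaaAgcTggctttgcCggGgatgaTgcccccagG
The window holds 14 differences. None of the 50-base words of Actc1 and 2.87% of those of Acta1, the latter in a feature named Gm47692, occurred in another gene. The pair therefore shared no word of that length. Among the alpha-actinins of the Z disc, Actn2, which all striated muscle uses, stood at 217 TPM in replicate 1 and 226 in replicate 2 and Actn3, of fast fibres, at 22.5 and 23.7 TPM. Actn2 held 90.6% ± 0.0772.

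Troponin came from slow, fast and heart genes at once. For troponin C, the calcium sensor, Tnnc1 (slow and heart) stood at 414 TPM in replicate 1 and 412 in replicate 2 and Tnnc2 (fast) at 238 TPM in replicate 1 and 241 in replicate 2, and Tnnc1 held 63.3% ± 0.335. Tnnc2 shares 74.0% of its exon bases with Ube2c, a cell cycle gene on the opposite strand at 192 and 187 TPM. The sources used here do not say whether counting used the strand, so the reads of Tnnc2 and Ube2c may not be separable. For troponin I, the inhibitory subunit, Tnni1 (slow) led at 333 TPM in replicate 1 and 341 in replicate 2 and held 89.2% ± 0.225. Tnni2 (fast) stood at 35.3 and 35.3 TPM and Tnni3 (heart) was last at 5.62 and 5.28 TPM. For troponin T, which ties the complex to tropomyosin, Tnnt1 (slow) stood at 314 TPM in replicate 1 and 310.2 in replicate 2 and Tnnt2 (heart) at 300.1 TPM in replicate 1 and 322 in replicate 2. Their order differed between the libraries, so Tnnt1 and Tnnt2 do not differ beyond their spread on the deposited TPM scale. Tnnt3 (fast) was last at 77.95 and 71.7 TPM. The fast gene held 36.7% ± 0.335 of troponin C, 9.35% ± 0.138 of troponin I and 10.7% ± 0.759 of troponin T.

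Tropomyosin transcripts were among the most abundant of all members. Tpm1, which encodes fast and heart alpha-tropomyosin as well as forms of nonmuscle cells, stood at 543 TPM in replicate 1 and 513 in replicate 2. Tpm2, the beta-tropomyosin gene, stood at 464 TPM in replicate 1 and 460.4 in replicate 2, and Tpm3, which encodes slow and nonmuscle forms, was last at 46.0 TPM in replicate 1 and 54.8 in replicate 2. The shares were 50.7% ± 1.19, 44.4% ± 0.514 and 4.85% ± 0.6803. Since gene counts add up muscle and nonmuscle splice forms, these levels are not those of the sarcomere alone, and no transcript-level values were analysed here. Of the 50-base words of Tpm3, 69.9% also occur in Tpm3-rs7, a listed near copy with 1076 and 483 counts, so the level of Tpm3 is uncertain.

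**Figure D2:**
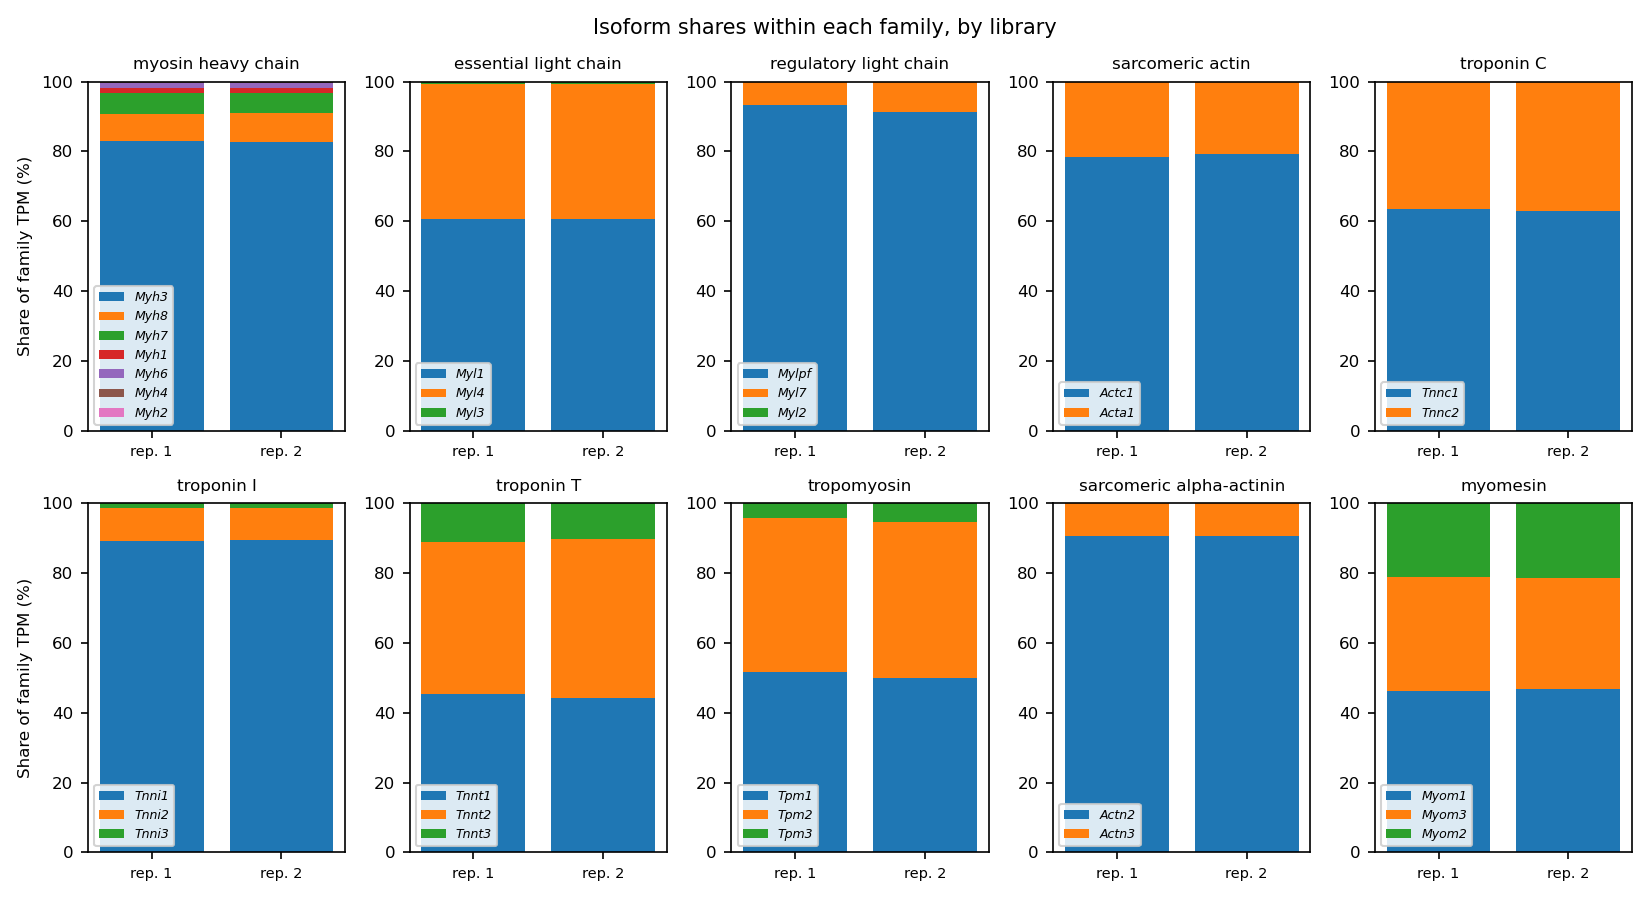
Share of each isoform in the summed TPM of its family, in percent, for 10 families, with 1 stacked bar for each library. The 2 bars of a family look nearly alike, Myh3, Mylpf, Tnni1 and Actn2 fill over 80% of theirs, and Tnnt1 and Tnnt2 take about equal parts of troponin T.

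Of the remaining thick filament genes, the highest was Mybph. This gene, which encodes myosin-binding protein H, a relative of myosin-binding protein C, stood at 246 TPM in replicate 1 and 268 in replicate 2 and held 83.2% ± 1.18 of its family. Mybph shares 49.9% of its exon bases with Adora1, an adenosine receptor gene on the opposite strand at 42.3 and 43.02 TPM. Of the myosin-binding protein C genes, the slow Mybpc1 stood at 45.2 TPM in replicate 1 and 55.6 in replicate 2, the fast Mybpc2 at 1.14 and 1.33 TPM, and the heart gene Mybpc3 was last at 0.283 and 0.397 TPM from 10 and 12 counts. The M band genes lay close together: Myom1 at 38.7 and 41.5 TPM, Myom3 at 27.5 and 28.1 TPM and Myom2 at 17.7 and 18.96 TPM. They held 46.5% ± 0.544, 32.2% ± 0.706 and 21.3% ± 0.163 of the myomesin level, and on the deposited scale the ranges of the 3 genes did not overlap. With counts divided by the principal transcript length, Myom2 held 31.1% in replicate 1 and 31.4% in replicate 2. Myom3 then held less, 29.9% and 28.9%.

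The giant proteins were low per length and high in counts. Ttn, titin (chr2:76703980-76982547, minus strand, GRCm38), stood at 11.3 TPM in replicate 1 and 18.1 in replicate 2, from 11197 and 15395 counts. Neb, nebulin, stood at 24.4 TPM in replicate 1 and 36.4 in replicate 2, and Nebl, the related nebulette gene of the heart, at 0.271 and 0.506 TPM from 35 and 56 counts. Neb held 98.8% ± 0.192 of the pair. Replicate 2 was the higher library for all 3 genes.

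Z disc and thin filament end genes differed widely in level. Ldb3, a Z disc scaffold, stood at 14.8 and 16.3 TPM in replicates 1 and 2 and Tcap, telethonin, which caps titin, at 10.7 and 10.3 TPM. Of the myozenins, calcineurin-binding Z disc proteins, Myoz2 (slow and heart) led at 13.8 and 13.5 TPM with 79.3% ± 3.67 of the family. Myoz1 (fast) stood at 2.91 and 3.93 TPM, and Myoz3 had 1 count in each library. Tropomodulins and leiomodins set the length of the thin filament at its pointed end. Lmod3, the skeletal leiomodin, stood at 33.7 and 36.8 TPM and Tmod1 at 35.1 and 34.3 TPM, and these values overlapped. Tmod1 shares 32.6% of its exon bases with Tstd2 on the opposite strand (40.7 and 38.2 TPM). Tmod4, the skeletal tropomodulin, stood at 6.66 and 4.01 TPM, and Lmod2, the leiomodin of heart muscle, was last at 1.798 and 1.54 TPM. Outside the members, Tmod3 stood at 64.1 and 67.1 TPM, above both Lmod3 and Tmod1. Xirp1, a Xin repeat protein, stood at 5.69 and 7.52 TPM, while Xirp2 had 2 and 1 counts. Des, desmin, the intermediate filament that ties Z discs together, stood at 139.6 and 138 TPM.

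The 4 assembly factors were all present. Klhl41, which helps to keep nebulin stable, stood at 77.1 TPM in replicate 1 and 90.7 in replicate 2, and Smyd1, a methyltransferase needed to fold myosin into filaments, at 61.1 and 66.3 TPM. Unc45b, the myosin chaperone of striated muscle, stood at 36.9 and 40.4 TPM. Klhl40 was last at 22.3 and 20.8 TPM, and 21.6% of its exon bases are shared with a feature on the opposite strand, Gm47108. The order of these 4 genes was the same in both libraries on the deposited scale.

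The choice of gene length changed the leader by mean level in 3 of the 17 families with more than 1 member. The deposited length of a gene is the union of the exons of all its transcripts for 30 of the 54 members (equal to GENCODE M21), and it was more than 2 times the principal transcript in 9 members. It was 4.92 times that length for Myl4, 3.42 times for Tpm1, 2.21 times for Myl1 and 2.15 times for Tnnt1. With counts divided by the principal transcript instead, Myl4 held 58.5% of the essential light chain level and Myl1 41.2%, so that the heart isoform led in both libraries. Tmod1 then held 49.3% against 40.6% for Lmod3, and Smyd1 36.2% against 34.4% for Klhl41. In replicate 1, Tmod1 had already led on the deposited length, with 45.4% against 43.6% for Lmod3. Tnnt1 moved to 61.4% and Tnnt2 to 29.1%, which took the pair of troponin T genes apart in both libraries. Tpm1 went from 50.7% to 69.9% of tropomyosin, and the tropomyosin total from 1041 to 2583 on the TPM scale. Myh3 stayed first of the heavy chains at 75.5%, with Myh8 at 13.99% and Myh7 at 7.32%, and the ratio of Myh3 to Myh8 went from 10.3 ± 0.225 to 5.401 ± 0.118. The leaders of the other 14 families were the same with the transcript length and with the coding length. Which transcripts these cells make was not measured at the gene level, so neither length is known to be the right one.

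**Figure D3:**
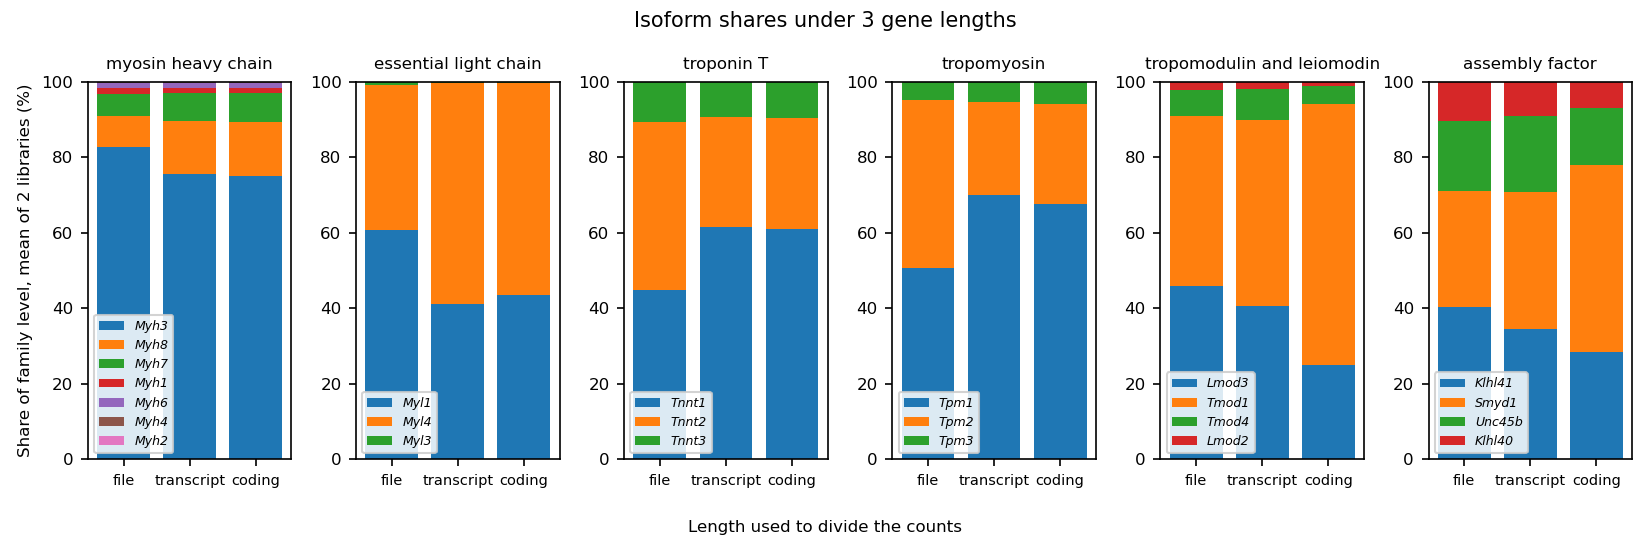
Isoform shares of 6 families in percent, as means of the 2 libraries, with counts divided by the length in the files, by the GENCODE principal transcript or by its coding part. Myl1 goes from 60.6% to 41.2% of essential light chain with the transcript length, Tpm1 goes to 69.9% of tropomyosin, and Myh3 stays first.

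Isoforms named after the heart fell into high and low members. Of the 7 genes of that class, Actc1, Tnnt2, Myl4 and Myl7 were at 69.9 TPM or more in both libraries. Myh6 and Tnni3 were between 5 and 10 TPM, and Mybpc3 was under 1 TPM. Of the 5 genes known in both slow and heart muscle, Tnnc1, Myh7 and Myoz2 were above 10 TPM, and Myl3 and Myl2 were under 3 TPM. The 11 fast genes spanned Mylpf, at 988 ± 4.89 TPM, to Myh2, at 0.6497 ± 0.156 TPM, with a median of 23.1 TPM, and 10 of them reached 1 TPM in both libraries. The slow genes Tnni1, Tnnt1 and Mybpc1 were all above 45 TPM. Since the heart had been removed, heart genes outside the sarcomere were read beside these levels. Of 14 such genes, 6 reached 1 TPM in both libraries, and their summed level was 188 and 207 TPM. Most of that came from Sln, sarcolipin, which fetal skeletal muscle also expresses, at 116 and 126 TPM, and Gja5, a connexin that arteries also express, at 48.99 and 56.9 TPM, followed by Hcn4 at 8.44 and 8.87 TPM. The others at 1 TPM or more were Popdc2 at 6.64 and 7.69 TPM, Tbx20 at 2.65 and 2.82 TPM and Ryr2 at 1.27 and 1.81 TPM. Among the rest, Bmp10 had 6 and 13 counts. Nppb, a natriuretic peptide gene, was listed with 0 counts in each library, a value that allows for up to 3 counts. Irx4, a ventricular regulator, had 2 and 0 counts, Nkx2-5, a heart transcription factor, 1 and 3, Nppa, an atrial peptide gene, 6 and 3, and Pln, phospholamban, 8 and 3. Smooth muscle genes were present as well, 7 of 9 at 1 TPM or more, led by Acta2 at 879.9 and 889 TPM, Tagln at 233 and 207 TPM and Smtn at 70.4 and 71.5 TPM. The lowest were Myocd at 0.532 and 0.878 TPM and Kcnmb1 at 0.141 and 0.164 TPM. The part of smooth muscle cells in the tropomyosin and desmin levels was not tested, nor was that of heart cells in the members' levels.

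Most members differed little between the 2 libraries, as did most genes. Of the 51 members with at least 10 counts over both libraries, 3 differed by 1.5-fold or more, beside 1163 of 15398 protein-coding genes tested. The median log2 ratio of replicate 2 to replicate 1 was 0.04, against -0.01 for all 19433 features tested. The exact two-sided binomial test, with Benjamini-Hochberg adjustment over those features, called 11 members higher in replicate 2 (background 8.85%) and 2 lower (background 8.65%). It compares these libraries and takes counting error as the only noise, so it calls smaller ratios in genes with more counts. Myl2, Myoz3 and Xirp2 had too few counts to be tested. At an added fold of 1.5, 3 members were called, against 2.35% of all features: Ttn, Nebl and Tmod4. With at least 50 counts required and no fold limit, 12 of 49 members were called higher and 2 lower. The shares of all features tested were then 11.1% and 11.2%.

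Titin and nebulin stood furthest from equality among members with at least 1000 counts in each library. Ttn had a log2 ratio of 0.64 (95% interval 0.61 to 0.68, adjusted p = 7.02e-283 by the exact binomial test) and Neb 0.54 (0.49 to 0.59, adjusted p = 8.43e-93). Nebl, with few counts, had 0.85 (0.23 to 1.52, adjusted p = 0.0373 by the same exact test). The other members higher in replicate 2 were Myl7 (0.39), Xirp1 (0.36), Myh6 (0.28), Mybpc1 (0.26), Tpm3 (0.21), Klhl41 (0.20), Myh8 (0.11) and Myh3 (0.07). By the exact binomial test, lower were Tpm1, by a log2 ratio of -0.12 (-0.15 to -0.10, adjusted p = 4.51e-20), and Tmod4, by -0.76 (-1.29 to -0.26, adjusted p = 0.0164) from 97 and 50 counts. The call on Tpm3 goes with an opposite difference in its near copy, since Tpm3-rs7 had a log2 ratio of -0.97 and the summed counts of both one of -0.06 (-0.13 to 0.01).

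Gene length moved with these ratios across the whole table. The median log2 ratio of protein-coding genes was -0.13 under 1000 bases and 0.26 in the 39 genes of 20000 bases or more. Among these 39, Ttn ranked 2 and Neb 4 by ratio, and 28 (71.8%) were called higher in replicate 2. From 10000 to 20000 bases, the range of Nebl and Myh8, 44.8% of 744 protein-coding genes were called higher. After each ratio was centred on the median of its length decile, Ttn stood at 0.55 and Neb at 0.45, both called. The top decile holds genes much shorter than these, with a median of 0.09, so this centring removed less than the 0.26 of the longest genes. Among members whose call was lost, Myh3 went to 0.02 and Myh8 to 0.02, while Myh6 (0.24), Nebl (0.76) and Xirp1 (0.32) kept most of their ratio. Myl1, Actc1, Tnnt2 and Mybph were called higher instead. Markers of some other tissues also moved between the libraries. In replicate 2, 9 of 10 hepatoblast genes (median log2 ratio 1.31) and 6 of 8 neuronal genes (1.33) were called higher. Of 13 skeletal muscle lineage genes 3 were called higher, and 1, Myod1, was called lower (log2 ratio -0.15). Of 9 smooth muscle genes (median 0.03) 0 were called higher and 1 lower. Of the 10 heart genes outside the sarcomere that were tested (median 0.06), 2 were called higher and 0 lower. Of all features tested, 8.85% were called higher and 8.65% lower. The summed hepatoblast level was 123 and 319 TPM, the summed neuronal level 19.7 and 45.4 TPM. The highest hepatoblast genes were Afp at 58.5 and 149.8 TPM, Alb at 35.9 and 104 TPM and Apoa1 at 10.97 and 22.6 TPM, and the lowest Fga at 1.16 and 1.93 TPM and Apob at 0.516 and 2.02 TPM. The highest neuronal genes were Stmn2 at 5.45 and 13.9 TPM, Tubb3 at 3.91 and 9.79 TPM and Isl1 at 5.57 and 7.47 TPM, and the lowest Th at 0.499 and 1.34 TPM and Elavl3 at 0.211 and 1.31 TPM. The highest erythroid genes were Hbb-y at 4462 and 4104 TPM, Hba-a1 at 585 and 523 TPM and Hba-x at 393 and 399 TPM. Of 9 genes of PPF mesenchyme 2 were called higher, with Pdgfra at 359.8 and 377 TPM, Gata4 at 173 and 178 TPM and Osr1 at 124 and 136 TPM highest and Tcf7l2 at 22.2 and 22.7 TPM and Tcf21 at 10.8 and 10.1 TPM lowest. The part of these other cells in the members' differences was not tested.

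**Figure D4:**
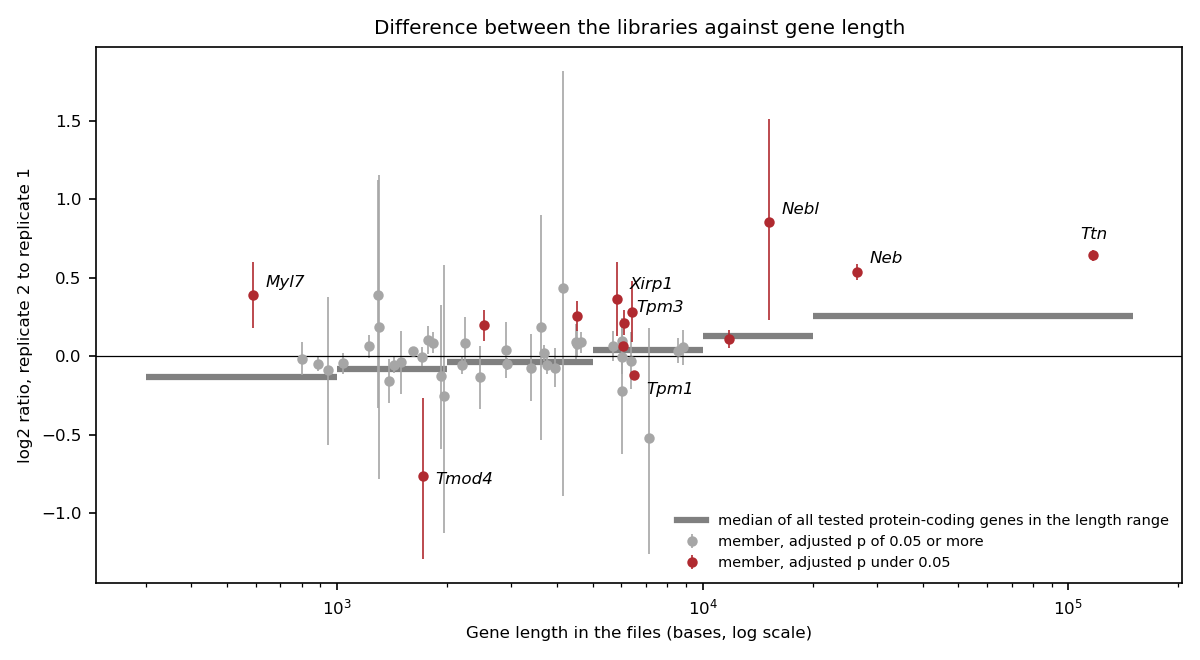
Log2 ratio of replicate 2 to replicate 1 for the 51 tested sarcomere genes against gene length in bases on a log axis, with 95% intervals, red for an adjusted p under 0.05. Grey bars are the medians of all tested protein-coding genes in 6 length ranges, from -0.13 to 0.26. Ttn and Neb lie above the bar of the longest genes, and Tmod4 and Myl7 lie far from the bars of their length.

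A second list held other sarcomere and Z disc genes. Of 59 listed, 57 were found, 50 reached 1 TPM in both libraries, 35 reached 10 TPM and 8 reached 100 TPM, with a median of 17.4 TPM. The highest were Tpm4, a mostly nonmuscle tropomyosin, at 519 and 577 TPM, Flnc, the muscle filamin, at 254 and 267 TPM, and Bin1, a membrane-shaping protein of T tubules, at 219.8 and 224 TPM. Next came the Z disc PDZ-LIM gene Pdlim3 at 181 and 179.5 TPM, Obsl1, an obscurin-like gene, at 141 and 138 TPM and the small heat shock gene Cryab at 119.7 and 121 TPM. The lowest were Ckmt2, the mitochondrial creatine kinase of muscle, with 1 count in each library, Igfn1 at 0.118 and 0.0765 TPM, Mylk2, the skeletal myosin light chain kinase, at 0.3195 and 0.186 TPM and Myh14, a nonmuscle heavy chain, at 0.373 and 0.303 TPM. Of the 56 tested, 6 were called higher in replicate 2 and 5 lower, beside 8.85% and 8.65% of all features tested, and none of them by 2-fold. Nonmuscle counterparts of the members ranged from low to high in deposited TPM. Words shared with other genes were not counted for these counterparts, so their levels are uncertain where reads matched several genes. Actb, cytoplasmic beta-actin, stood at 2012 and 1925 TPM, near Actc1, and Actg1, cytoplasmic gamma-actin, at 30.4 and 27.5 TPM. The nonmuscle heavy chains Myh10 and Myh9 stood at 254 and 259 TPM and at 92.3 and 94.9 TPM, both below Myh3. Actn4 and Actn1, the nonmuscle alpha-actinins, stood at 264 and 258 TPM and 225 and 232 TPM, beside 217 and 226 TPM for Actn2.

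Sequence upstream of the members was read as a property that did not choose them. RefSeq windows of 250 bases before the annotated start (GRCm38.p6) were matched for 44 of the 54 members by symbol. An E-box (CANNTG, the letters that myogenic factors such as Myod1 and Myog bind, both strands) was present in 37 of 44, or 84.1%, against 66.0% of all 27025 windows. A MEF2 site was present in 9 (20.5%, against 3.01%), a CArG box, the letters bound by serum response factor, in 7 (15.9%, against 1.40%), and TATAAA in 9 (20.5%, against 13.0%). TATAAA can lie inside a MEF2 site or a CArG box. All 9 members with a MEF2 site had a mean level under 100 TPM, as had 29 of the 44. The windows of both actin genes, of Myh3 and of Myh2 are printed because they belong to the leading actin pair and to the highest and lowest heavy chains among the members. They read 5′ to 3′ on the strand of the gene, minus for both actins and plus for the others, with capitals marking E-boxes, MEF2 sites and CArG boxes.
Actc1, chr2:114052876-114053125: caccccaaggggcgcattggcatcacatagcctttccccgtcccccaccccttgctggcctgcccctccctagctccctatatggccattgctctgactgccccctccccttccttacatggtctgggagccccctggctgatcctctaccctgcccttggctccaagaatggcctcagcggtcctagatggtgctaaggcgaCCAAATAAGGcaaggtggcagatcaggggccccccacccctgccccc
Acta1, chr8:123894776-123895025: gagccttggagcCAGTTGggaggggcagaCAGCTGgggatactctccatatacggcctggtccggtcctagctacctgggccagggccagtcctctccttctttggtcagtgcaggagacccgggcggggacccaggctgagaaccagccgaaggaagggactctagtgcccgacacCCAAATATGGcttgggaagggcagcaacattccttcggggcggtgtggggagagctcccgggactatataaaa
Myh3, chr11:67078050-67078299: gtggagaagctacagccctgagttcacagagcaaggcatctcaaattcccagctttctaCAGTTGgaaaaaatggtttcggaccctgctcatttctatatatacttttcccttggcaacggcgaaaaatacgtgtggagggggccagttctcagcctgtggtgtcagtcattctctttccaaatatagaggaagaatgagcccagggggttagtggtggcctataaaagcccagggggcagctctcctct
Myh2, chr11:67170777-67171026: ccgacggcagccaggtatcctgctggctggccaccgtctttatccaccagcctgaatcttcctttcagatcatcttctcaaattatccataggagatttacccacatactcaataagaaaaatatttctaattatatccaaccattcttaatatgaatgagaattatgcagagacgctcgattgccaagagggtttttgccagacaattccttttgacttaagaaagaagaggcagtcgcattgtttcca
The Actc1 window lies before the RefSeq start, inside the longer GENCODE gene given above. Both actin windows hold 1 CArG box, Acta1 holds 2 E-boxes and Actc1 none, Myh3 holds 1 E-box, and Myh2 holds none of the 3 motifs. A match is a description of letters and not of binding, and no match speaks only of this window.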

How the data were processed

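RNA was measured in 2 libraries of wild-type PPFs. The submitters' processing notes name build mm9 and 3 tools: the aligner STAR (2.4.0a), SAMtools (1.3) and, for counting, featureCounts. The aligner settings, the strand setting and the annotation are not stated in those notes. All 54 members overlapped their GENCODE M21 (GRCm38) positions in the files, and 19 had identical coordinates, so GRCm38 positions are printed. The deposited count of each gene is a raw read count that the authors did not normalise. The deposited TPM is that count divided by the gene length in the file and scaled by the authors to 1 sum per library. Depth was 26370253 and 23255957 counts.

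Computed here were shares of each family's TPM, exact Clopper-Pearson intervals of the counts, and log2 ratios from counts plus 0.5 at library sizes scaled by edgeR 4.0.16 (TMM). Setting 1 library against the other leaves edgeR's quasi-likelihood test no residual degrees of freedom. An exact two-sided binomial test (scipy 1.17.1, Benjamini-Hochberg over 19433 features with at least 10 counts) was therefore used. It was run on simulated data that held counting error alone, the noise this test assumes. That run cannot show how the test behaves under other differences between libraries. Principal transcript and coding lengths, exon overlap and 50-base words came from GENCODE M21, and upstream windows from RefSeq. Alternatives were DESeq2 1.42.0 size factors, other filters, thresholds, lengths and centrings, and leaving out each replicate. Members and gene lists were chosen with earlier results of these data known. Both values are printed for members that lead or end a family or differ between libraries; from the second list the 6 highest and 4 lowest, and from marker lists the 3 highest, the 2 lowest and any at 0. Nonmuscle counterparts and genes that share sequence with a member were added after their values were seen. So were Nkx2-5, Nppa, Pln, Popdc2, Tbx20, Ryr2, Bmp10, Myl6b, Myh7b, Myh13, Tmod3 and the calls on Myod1 and the smooth muscle and heart lists. Of the lists, 2 sarcomere, 2 skeletal muscle and 1 erythroid gene symbol had no row and were not analysed here under that symbol. The lowest erythroid genes and the calls of that list are not reported here.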

Additional observations from a re-analysis of the deposited data

How the results depend on the processing

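Without any length (shares of counts), with the GENCODE transcript length and with the coding length, Myl1 held 37.4%, 41.2% and 43.4% of essential light chain, behind Myl4. Lmod3 likewise held 34.6%, 40.6% and 25.1%, behind Tmod1, and Klhl41 29.1%, 34.4% and 28.4%, behind Smyd1. The leader stayed the same in 14 of 17 families under each. Leaving out a replicate, Tnnt1 held 44.1 to 45.4% of troponin T, behind Tnnt2 without replicate 1, and Lmod3 43.6 to 48.0%, behind Tmod1 without replicate 2, while the leader stayed the same in 16 families each time. The number of members at 1 TPM or more was 48 under every alternative except a threshold of 5 TPM, which left 42. Calls between the libraries fell to 2 higher and 1 lower when a 1.5-fold difference was also required, beside 1.34% and 1.01% of all features tested. The other settings gave 10 to 15 members higher and 2 lower. Of all features tested, these settings called 6.28 to 11.1% higher and 5.90 to 11.2% lower. Centred on length and GC content, Tnni1 turned to a log2 ratio of 0.10, called higher (adjusted p = 7.68e-03, exact binomial test). In no case was the cause tested, other than that shares of counts omit length and that a fold limit admits fewer genes. The transcript length, coding length and GC settings were chosen after seeing the data, and the planned protein length was not run. No paired analysis was possible because the libraries form a single group. Members under about 10 counts (Myl2, Myoz3, Xirp2) cannot be ordered at this depth.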
